A study of Mus musculus with 2 samples.

Results

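The Krüppel-like factors (KLF) described here are 8 genes, Klf2, Klf3, Klf4, Klf6, Klf7, Klf10, Klf13 and Klf16, of the 28692 genes counted in the series. They were taken by gene symbol from both count matrices. The 8 were chosen with the levels of KLF genes in these libraries, and their ratios between the libraries, already seen, so the levels and ratios below are a description of chosen genes and carry no test.

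KLF proteins bind GC-rich and CACCC-type DNA elements through zinc fingers at their carboxyl end, and their differing amino ends recruit coactivators or corepressors. In blood cells KLF4 is known for promoting monocyte differentiation, and KLF2 for holding T cells in quiescence, guiding their traffic and restraining the inflammatory activation of myeloid cells. KLF3 represses through the corepressor CtBP, while KLF10, KLF13 and KLF16 belong to a subgroup that recruits Sin3A.

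The data were single-cell RNA counts from cultured C57BL/6 mouse bone marrow cells. Marrow enriched for stem and progenitor cells from 5 mice was infected with a GFP-marked retrovirus carrying a short hairpin RNA (shRNA). The control shRNA targets no mouse gene, and the other shRNA targets Cxxc5, which encodes a CXXC zinc finger protein. GFP-positive LSK cells (lineage-negative, Sca-1-positive, Kit-positive, a fraction rich in stem and progenitor cells) were sorted and grown for 3 days in DMEM with 20% fetal bovine serum and 10 ng/ml of each of the cytokines GM-CSF and SCF. The ages of the mice, and whether the same mice gave both pools, were not stated in the labels. Each group was 1 library made from 5 pooled samples, so no difference here has a replicate check, and the intervals given are 95% and cover counting error only.

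After filtering, the control library held 2912 cells at a median of 17197 UMIs (unique molecular identifiers, each counted as 1 RNA molecule), and the knockdown library 6004 cells at a median of 10599. Levels are UMIs of a gene per 1000000 UMIs, written CPM. Cxxc5 had 9.38 CPM (8.54 to 10.3) in the control library and 1.16 CPM (0.910 to 1.46) in the knockdown library. Of the 2 genes that define the sorted fraction, Kit was at 24.1 and 25.2 CPM and Ly6a, which encodes Sca-1, at 10.1 and 7.52 CPM. By then most cells expressed granule genes, with 2013 control and 4599 knockdown cells past the granule protease cut given below. The libraries shared 26 cell barcodes. Endothelial cells, which also use KLF2 and KLF4, were not evident, since Cdh5 and Emcn had at most 1 UMI a library and Cxcl12 had 0. Pecam1, which blood cells express too, was at 53.7 and 46.1 CPM.

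Cells were placed in marker gates by the summed UMIs of fixed marker lists per 10000 UMIs of the cell, with cuts chosen after the scores were seen and no KLF gene in any list. A gate is therefore a range of a score and not a cell type. The late neutrophil gate (464 control and 669 knockdown cells) had at least 100 per 10000 from neutrophil genes such as S100a8 and at least 30 from late granule genes such as Ltf and Camp. The early neutrophil gate (348 and 647 cells) had the first and not the second. The monocyte gate (393 and 521 cells) had at least 3 from a list that includes Csf1r, Ccr2 and Ms4a6c. The granule protease gate (1193 and 3117 cells) had at least 100 from genes such as Elane, Mpo and Prtn3, and the mast-basophil gate (202 and 423 cells) at least 5 from genes such as Cpa3 and Gata2. A further 246 and 563 cells passed no gate. The dendritic gate had 66 and 64 cells, under the 100 set for a comparison, so its levels are given without one. Many cells lay within 25% of a cut, 222 of the control and 413 of the knockdown cells around the monocyte cut and 104 and 296 around the mast-basophil cut.

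Klf2 (ENSMUSG00000055148) lies on chromosome 8 at 72319033 to 72321656, Klf4 (ENSMUSG00000003032) on chromosome 4 at 55527143 to 55532466, Klf6 (ENSMUSG00000000078) on chromosome 13 at 5861482 to 5870394 and Klf13 (ENSMUSG00000052040) on chromosome 7 at 63886351 to 63938915, in GRCm38. These 4 were at least 1.2-fold lower in the knockdown library, and the bases just upstream of them are shown as a description. The windows are RefSeq's, build GRCm38.p6, ended before the GENCODE M21 gene start where that comes earlier, and are given 5′ to 3′ on the gene's strand. They cover chr8:72318812-72319032 on the plus strand, chr4:55532476-55532725 on the minus strand, chr13:5861239-5861481 on the plus strand and chr7:63938916-63939165 on the minus strand. Capitals mark GC boxes, CACCC elements and a MEF2 site.
Klf2: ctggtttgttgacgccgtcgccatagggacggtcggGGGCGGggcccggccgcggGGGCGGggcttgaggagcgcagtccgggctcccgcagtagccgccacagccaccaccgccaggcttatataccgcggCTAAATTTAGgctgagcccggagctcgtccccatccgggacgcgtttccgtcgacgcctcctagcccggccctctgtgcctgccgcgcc
Klf4: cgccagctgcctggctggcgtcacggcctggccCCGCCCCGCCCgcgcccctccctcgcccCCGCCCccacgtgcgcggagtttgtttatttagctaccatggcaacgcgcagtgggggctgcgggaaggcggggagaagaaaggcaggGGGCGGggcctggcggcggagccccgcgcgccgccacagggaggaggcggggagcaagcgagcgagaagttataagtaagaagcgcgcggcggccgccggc
Klf6: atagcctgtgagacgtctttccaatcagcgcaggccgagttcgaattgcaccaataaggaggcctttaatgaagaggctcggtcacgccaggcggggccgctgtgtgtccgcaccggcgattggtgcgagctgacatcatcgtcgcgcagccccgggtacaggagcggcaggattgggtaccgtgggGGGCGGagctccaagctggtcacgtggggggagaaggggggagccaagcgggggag
Klf13: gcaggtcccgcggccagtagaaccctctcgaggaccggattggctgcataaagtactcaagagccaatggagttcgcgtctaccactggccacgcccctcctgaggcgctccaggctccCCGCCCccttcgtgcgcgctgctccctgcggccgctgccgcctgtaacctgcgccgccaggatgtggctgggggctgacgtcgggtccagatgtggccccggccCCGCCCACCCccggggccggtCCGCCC

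RefSeq windows were matched for 6 of the 8 members, without Klf10 and Klf16, and those of Klf3 and Klf7 left too few bases upstream of both annotated starts. Motifs were searched on both strands, the GC box as GGGCGG and the CACCC element by its name's letters. The cAMP response core was searched by the letters TGACG, the E-box by the letters CACGTG and the TATA box by the letters TATAAA, and the MEF2 site and the CArG box of serum response genes by their known patterns. All 4 windows held a GC box, 2 in Klf2, 4 in Klf4, 1 in Klf6 and 3 in Klf13. Of 32851 RefSeq promoter windows cut to the same lengths, 28.7% to 32.7% held one. The 4 windows were 64.2% to 74.0% G and C, and the share over all windows was not matched for this. One pair of GC boxes in Klf4 shares a base, and the 1 CACCC element, in Klf13, shares a base with a GC box. CACCC was in 48.0% to 52.0% of all windows. The MEF2 site of Klf2 began 118 bases before the RefSeq start and was absent from the other 3 windows, and 2.61% of windows of that length held one. The cAMP response core was in Klf2, Klf4 and Klf13 (15.0% to 17.8% of all windows) and the E-box in Klf4 and Klf6 (5.79% to 6.02%). None of the 4 held the CArG box (1.30% to 1.47%) or the TATA box (9.99% to 12.4%). A match is a string of letters, and factor binding was not measured. No member near 1-fold had a window to set beside these, so a link between an element and the lower levels was not tested.

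Over all cells, Klf2, Klf4, Klf6 and Klf13 were lower in the knockdown library and the other 4 members lay near 1-fold. Klf13 was the most abundant, at 64.8 CPM with the control and 52.0 with the Cxxc5 shRNA, a log2 ratio of -0.32 (-0.39 to -0.25). Klf2 was at 33.2 and 16.2 CPM, a log2 ratio of -1.04 (-1.15 to -0.92). Klf6 was at 21.9 and 14.2 CPM, or -0.62 (-0.75 to -0.49), and Klf4 at 10.0 and 6.03 CPM, or -0.73 (-0.93 to -0.54). Klf7 was at 24.4 and 23.0 CPM (-0.09, -0.20 to 0.02), Klf3 at 12.4 and 12.8 (0.05, -0.10 to 0.21), Klf10 at 6.21 and 6.74 (0.12, -0.10 to 0.34) and Klf16 at 8.85 and 9.85 (0.15, -0.03 to 0.33). Of the members, 4 reached 20 CPM in a library, and 3 of them (Klf2, Klf6 and Klf13) were at least 1.2-fold lower and 0 at least 1.2-fold higher. Over all 4798 genes of that level, 4.06% were lower and 3.02% higher, with a median log2 ratio of 0.04. The members were chosen on this contrast, so their count is given without reading anything from it.

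**Figure D1:**
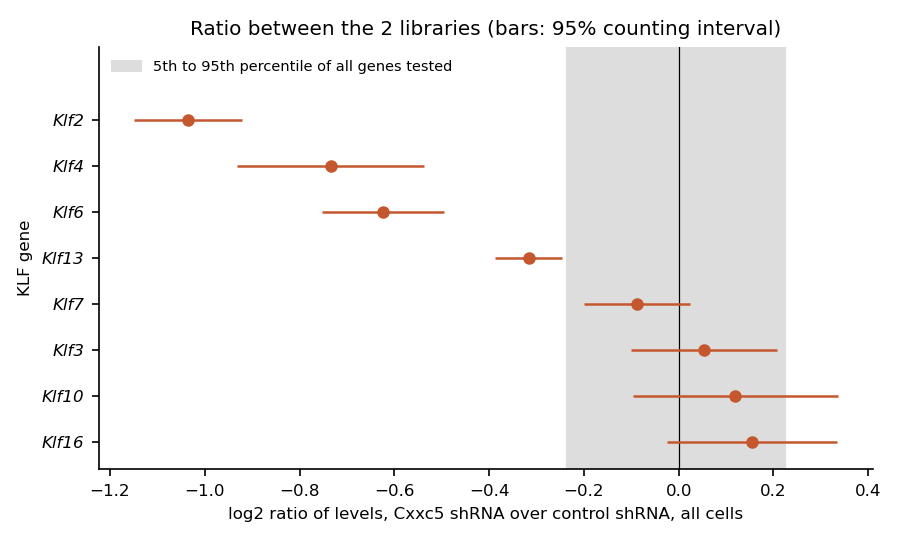
Log2 ratio of levels, Cxxc5 shRNA over control shRNA, for the 8 genes over all cells (x axis; 1 gene a line). Points are ratios of 1 library each and bars 95% counting intervals; the grey band spans the 5th to 95th percentile of 4798 genes, and Klf2, Klf4, Klf6 and Klf13 lie to its left.

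Klf2 was most abundant in the late neutrophil gate of both libraries. In the control library its levels were 81.2 CPM (74.2 to 88.6) in the late neutrophil gate, 43.6 (38.6 to 49.1) in the early neutrophil gate and 37.4 (32.8 to 42.5) in the monocyte gate. They were 23.5 (21.6 to 25.6) in the granule protease gate, 14.3 (10.6 to 18.7) outside the gates and 8.51 (5.45 to 12.7) in the mast-basophil gate. The early neutrophil and monocyte intervals overlapped, as did the last pair. In the knockdown library the late neutrophil gate had 53.7 CPM (47.9 to 60.1) and the monocyte gate 28.7 (24.1 to 33.8). The early neutrophil gate followed, at 13.7 (11.1 to 16.8), and its interval overlapped those of the granule protease gate, at 11.2 (10.1 to 12.4), and of cells outside the gates, at 10.4 (7.91 to 13.5). The mast-basophil gate was the lowest of those compared in both libraries, at 4.12 CPM (2.36 to 6.69) in this one. The dendritic gate had 7.20 CPM (2.89 to 14.8) and 15.9 CPM (7.28 to 30.2), from 7 and 9 UMIs.

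The gap in Klf2 between the libraries was wide in early neutrophil cells. The log2 ratio was -1.67 (-2.02 to -1.33) there, from 276 control and 96 knockdown UMIs, a 3.17-fold lower level. It was -1.07 (-1.26 to -0.88) in the granule protease gate, -0.59 (-0.81 to -0.39) in the late neutrophil gate and -0.38 (-0.70 to -0.08) in the monocyte gate. Outside the gates it was -0.45 (-1.02 to 0.13), and in the mast-basophil gate, with 24 and 16 UMIs, -1.05 (-2.06 to -0.07). The early neutrophil interval lay below those of the late neutrophil, monocyte and granule protease gates. With 1 library a group, this difference between gates was not tested over samples. The early neutrophil ratio was -1.17 when cells were thinned to 5000 UMIs, 1 random draw that keeps fewer molecules, and -1.64 when only the gates were scored at that depth. The order of the gates turned under some alternatives. With cuts doubled, the granule protease gate was at -1.72 and the early neutrophil gate at -1.48. The mast-basophil gate, with its few UMIs, was at -1.86 when thinned and at -2.03 without cells past 2 or more gates. Without the 10 richest cells, the monocyte gate was at -0.23, short of 1.2-fold, and cells outside the gates at -0.17.

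Within the neutrophil gates, Klf2 was higher in cells with a high late granule score in both libraries, and the libraries lay closer there. With cells binned by score at 10, 30, 100 and 300 late granule UMIs per 10000, the control levels were 44.8, 39.7, 56.4, 80.1 and 109 CPM from the lowest to the highest bin. The knockdown levels were 12.4, 17.7, 20.7, 43.6 and 91.4 CPM. The log2 ratio was -1.85 (-2.28 to -1.45) in the lowest bin (256 control and 478 knockdown cells), then -1.17, -1.44 and -0.88. It was -0.25 (-0.54 to 0.04) in the highest bin (185 and 275 cells), whose interval does not overlap that of the lowest. The 10 richest control cells held 43.3% of the Klf2 UMIs in the lowest bin, 67.2% in the next and 29.3% in the highest. In the knockdown library these shares were 43.1%, 48.4% and 26.0%. Intervals that treat UMIs as independent are too narrow there, and a trend over the bins was not tested. Knockdown cells were shallower in every bin, with medians of 10628 against 18549.5 UMIs in the lowest and 7006 against 9971 in the highest. With every cell scored at 5000 UMIs, the 5 log2 ratios were -1.88, -0.99, -1.58, -0.78 and -0.34. Over both neutrophil gates the log2 ratio was -0.97 as counted and -0.95 with bins weighted as in the control library, an alternative added after the data were seen.

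**Figure D2:**
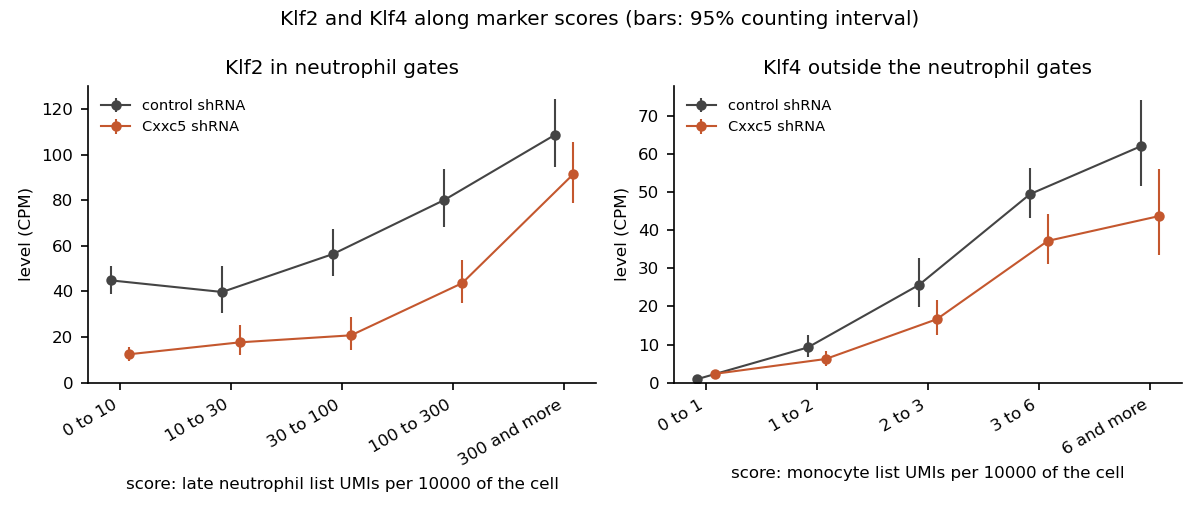
Left, Klf2 level (CPM) in neutrophil gates against the late granule score of the cell; right, Klf4 level in the monocyte, granule protease and ungated cells against the monocyte score; scores are list UMIs per 10000. Points are 1 library each with 95% counting intervals; Klf2 goes from 44.8 to 109 CPM with the control and from 12.4 to 91.4 CPM with the Cxxc5 shRNA.

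A Klf2 UMI was found in fewer cells too. At 5000 UMIs a cell, which left out 115 control and 641 knockdown cells, 11.8% of the control (10.6 to 13.1%) and 6.90% of the knockdown cells (6.24 to 7.61%) held one; unthinned, the shares were 26.8% and 11.7%. In the late neutrophil gate the thinned shares were 27.3% (23.2 to 31.8%) and 20.6% (17.4 to 24.2%), and in the early neutrophil gate 11.1% (8.01 to 15.0%) and 5.88% (4.15 to 8.05%). The mast-basophil gate, the lowest, had 3.70% and 0.875%. No cell type known to lack Klf2 was at hand as background, and that last share is the nearest to it. One cell held up to 19 Klf2 UMIs with the control and 10 with the Cxxc5 shRNA. The 10 richest cells carried 8.81% and 5.89% of the Klf2 UMIs, and the log2 ratio without them was -0.99.

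Klf4 was found mainly in the monocyte gate and in cells outside the gates. The monocyte gate had 53.4 CPM (47.9 to 59.3) with the control and 39.1 CPM (33.7 to 45.0) with the Cxxc5 shRNA, a log2 ratio of -0.45 (-0.71 to -0.19). It supplied 69.0% of the control library's Klf4 UMIs while holding 13% of all UMIs. Cells outside the gates had 24.6 and 19.8 CPM, or -0.31 (-0.73 to 0.11). That ratio turned to 0.11 without the 10 richest cells and to 0.46 at 5000 UMIs, 1 random draw. In a draw at 3000 UMIs the mean was 0.0691 Klf4 UMIs a control cell and 0.0559 a knockdown cell. With only the gates scored at 5000 UMIs the ratio was -0.58 (-0.99 to -0.17). The alternatives went both ways, so its direction is not settled. The dendritic gate had 15.4 and 15.9 CPM from 15 and 9 UMIs. The granule protease gate had 1.56 and 1.61 CPM, and the mast-basophil and neutrophil gates at most 1.29 CPM, from 9 UMIs or fewer.

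At 5000 UMIs a cell, 18.8% of control monocyte-gate cells (15.0 to 23.2%) and 12.8% of knockdown ones (9.80 to 16.3%) held a Klf4 UMI. In the control late neutrophil gate 0 of 428 cells did, which allows a share of up to 0.701% (3 cells of the total; the exact upper bound is 0.858%), and in the knockdown one 3 of 567 (0.529%). These gates serve as the background, at median depths of 12514.5 and 8273 UMIs against 16693 and 9501 in the monocyte gate. Unthinned, the monocyte-gate shares were 36.9% and 19.0%.

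The lower Klf4 level over all cells went together with a smaller share of monocyte-gate cells. That gate held 13.5% of control and 8.68% of knockdown cells. With the knockdown gates weighted by their UMI shares in the control library, the Klf4 log2 ratio over all cells was -0.36 in place of -0.73, and -0.45 with gates scored at 5000 UMIs. Along the monocyte score, with bins split at 1, 2, 3 and 6 list UMIs per 10000, control levels were 0.871, 9.24, 25.7, 49.5 and 62.1 CPM. Knockdown levels were 2.29, 6.20, 16.6, 37.2 and 43.7 CPM, lower in the upper 4 bins and higher in the lowest, where the log2 ratio was 1.39 (0.62 to 2.25). Knockdown cells in that bin had a median of 11280 UMIs against 19444. Scored at 5000 UMIs, cells with 0 monocyte list UMIs had 2.01 CPM of Klf4 with the control and 2.79 CPM with the Cxxc5 shRNA, or 0.47 (-0.09 to 1.05). Cells with 3 or more had 58.7 and 37.8 CPM, or -0.63 (-1.0 to -0.28).

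**Figure D3:**
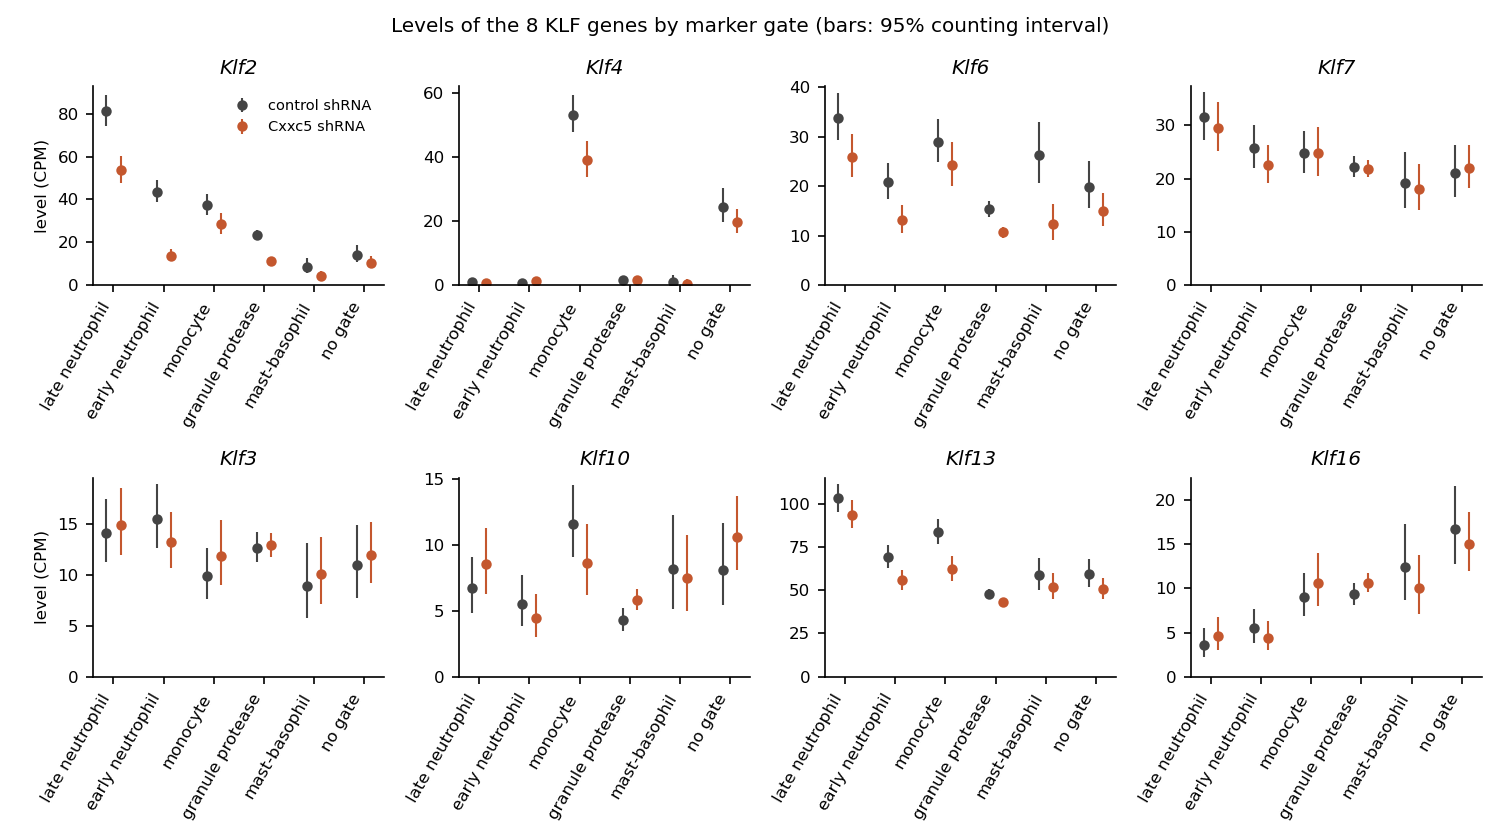
Level (CPM, y axis) of each KLF gene in the 6 marker gates (x axis) of the control and the Cxxc5 shRNA library. Points are 1 library each with 95% counting intervals; Klf4 stands at 53.4 and 39.1 CPM in the monocyte gate and Klf2 at 81.2 and 53.7 CPM in the late neutrophil gate.

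Klf6, known to drive inflammatory genes in macrophages, was present in every gate. It was highest in the dendritic gate, at 61.7 CPM (47.1 to 79.4) with the control and 56.6 CPM (38.7 to 79.9) with the Cxxc5 shRNA. The late neutrophil gate had 33.8 and 25.9 CPM, a log2 ratio of -0.38 (-0.70 to -0.07), and the monocyte gate 29.0 and 24.2 CPM, or -0.26 (-0.61 to 0.08). The mast-basophil gate went from 26.2 CPM (20.6 to 32.9) in the control to 12.4 CPM (9.11 to 16.4) in the knockdown library, or -1.09 (-1.64 to -0.54). The early neutrophil gate had 20.8 and 13.2 CPM (-0.66, -1.06 to -0.27) and the granule protease gate 15.3 and 10.6 CPM (-0.52, -0.74 to -0.31). Cells outside the gates had 19.8 and 15.0 CPM. Knockdown levels were below control levels in all 7 groups of cells, but the intervals of the ratio span 0 in the dendritic gate, the monocyte gate and outside the gates. At 5000 UMIs, 16.9% of control (11.9 to 23.1%) and 6.12% of knockdown (3.83 to 9.21%) mast-basophil cells held a Klf6 UMI.

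In neutrophil cells Klf6 resembled Klf2 in its course. From the lowest to the highest late granule bin, control levels were 20.6, 21.5, 29.2, 34.6 and 38.0 CPM and knockdown levels 12.4, 15.4, 18.3, 21.8 and 36.4 CPM. The log2 ratio was -0.73 (-1.21 to -0.27) in the lowest and -0.06 (-0.55 to 0.42) in the highest bin. These intervals overlap, so a narrowing of the gap was not resolved for Klf6.

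Klf13, known for driving late Ccl5 expression in T cells, was highest in the dendritic gate (115 and 90.2 CPM) and the late neutrophil gate (103 and 93.7 CPM). The monocyte gate had 83.6 CPM (76.6 to 91.0) with the control and 62.2 CPM (55.4 to 69.6) with the Cxxc5 shRNA, a log2 ratio of -0.43 (-0.63 to -0.22). It was the largest gap of Klf13 among the gates compared, and it was -0.19 with gate cuts doubled, so it depends on where the gate is drawn. The early neutrophil gate had 69.0 and 55.7 CPM, or -0.31 (-0.51 to -0.11). The granule protease gate had the lowest level, 47.7 and 42.8 CPM, or -0.15 (-0.27 to -0.04). Mast-basophil cells had 58.9 and 52.0 CPM and cells outside the gates 59.5 and 50.6 CPM. At 5000 UMIs, a Klf13 UMI was in 28.5% of the control cells (26.8 to 30.2%) and 22.8% of the knockdown cells (21.7 to 23.9%). Weighted by the control gate shares, the log2 ratio over all cells was -0.23, short of 1.2-fold.

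**Figure D4:**
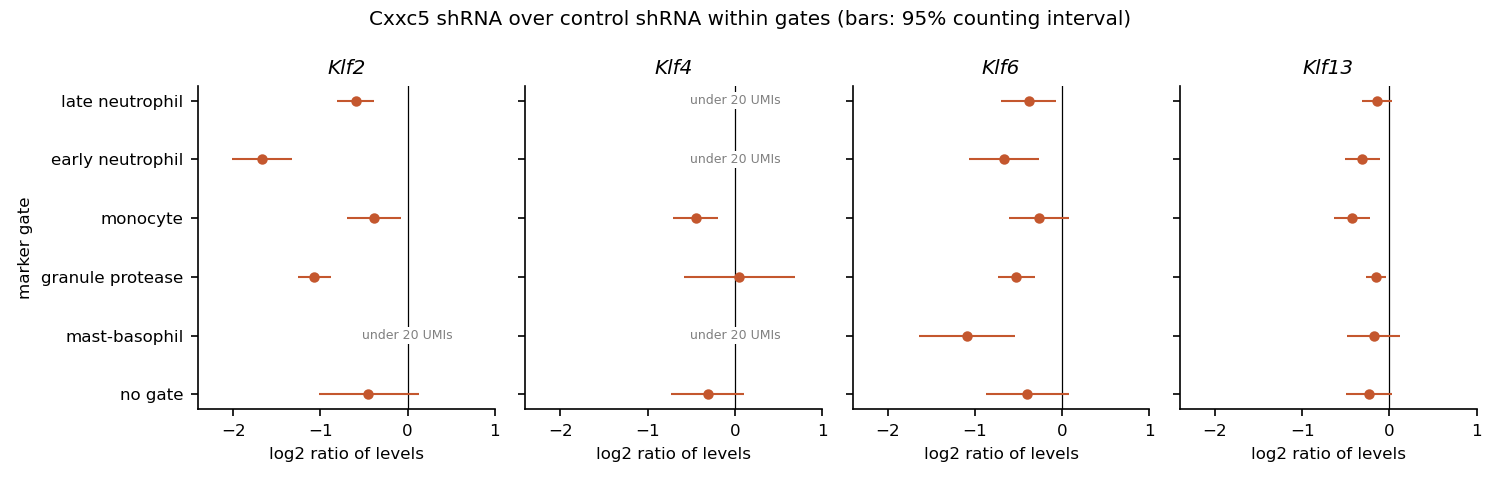
Log2 ratio of levels, Cxxc5 shRNA over control shRNA (x axis), of Klf2, Klf4, Klf6 and Klf13 in each marker gate (y axis), with 95% counting intervals. Gates with under 20 UMIs of the gene in a library carry no point; Klf2 in the early neutrophil gate, at -1.67, lies farthest from 0.

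The other 4 members differed little between the libraries. Klf7, the closest relative of Klf6, ranged from 19.2 to 31.5 CPM in the control and from 18.0 to 29.4 CPM in the knockdown gates compared, with the mast-basophil gate lowest and the late neutrophil gate highest in both. The dendritic gate stood above these, at 52.4 CPM (39.0 to 68.9) and 63.7 CPM (44.6 to 88.1). Its log2 ratios lay between -0.20 and 0.07 in the 6 gates compared, and every interval spans 0. Over all cells it was -0.29 with cells thinned to 5000 UMIs. Klf3 ranged from 8.87 to 15.5 CPM in the control gates compared, and every interval of its ratios spans 0.

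Klf10, also called TGF-beta-inducible early gene, was at 11.6 CPM (9.09 to 14.5) in the control monocyte gate, the highest of the control gates compared, against 8.60 (6.20 to 11.6) with the Cxxc5 shRNA. The highest of the knockdown gates compared was that of cells outside the gates, at 10.6 CPM (8.07 to 13.7). The dendritic gate held 5 and 9 Klf10 UMIs. In the granule protease gate it was at 4.29 CPM (3.49 to 5.22) with the control and 5.84 CPM (5.07 to 6.69) with the Cxxc5 shRNA, a log2 ratio of 0.44 (0.09 to 0.81). That gate was the only one of the 6 in which a member's level was at least 1.2-fold higher in the knockdown library with an interval above 0. Among the gates compared, Klf16 was highest in cells outside the gates, 16.8 and 15.0 CPM, and low in late neutrophil cells, 3.61 CPM (2.26 to 5.46) and 4.61 CPM (3.01 to 6.76). Its early neutrophil levels were 5.53 CPM (3.85 to 7.69) and 4.44 CPM (3.01 to 6.30), so the intervals of the neutrophil gates overlap. The dendritic gate had 11.3 and 21.2 CPM from 11 and 12 UMIs. Klf3, Klf7 and Klf13 overlap other annotated genes, and no label or header says whether reads were counted by strand, so some of their UMIs may belong to a neighbour.

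Counts of members past 1.2-fold varied by gate, among members of at least 20 CPM in a library within the gate. In the early neutrophil gate 3 of 4 such members were lower (Klf2, Klf6 and Klf13), against 7.47% of all genes lower and 7.94% higher. In the monocyte gate 3 of 5 were lower (Klf2, Klf4 and Klf13), against 7.33% lower and 6.59% higher. Klf2 fell short of 1.2-fold there without the 10 richest cells, at -0.23. In the late neutrophil gate 2 of 4 were lower (Klf2 and Klf6), against 9.16% lower and 15.3% higher. The granule protease gate had 1 of 3 (Klf2), against 2.92% lower and 2.38% higher. The mast-basophil gate had 1 of 2 (Klf6), against 10.8% lower and 14.8% higher. Outside the gates 1 of 3 was lower (Klf4), against 9.2% lower and 8.07% higher. No member of that level was 1.2-fold higher in any of the 6. These gates divide the cells whose totals chose the members, so the counts are not independent of that choice.

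The wider KLF and SP family was read from fixed lists. At 10 CPM or more in a library, 4.72% of 6743 genes were at least 1.2-fold lower and 3.8% higher, with a median log2 ratio of 0.03; of the members, 6 reached that level, 4 were lower and 0 higher. Of 9 other KLF genes only Klf9 reached it, at 20.5 and 21.0 CPM, and Klf12, Klf14 and Klf17 had no UMI. Below that level, and named after their values were seen, Klf5 was at 2.76 and 1.92 CPM (-0.52, -0.89 to -0.16) and Klf11 at 1.91 and 1.43 CPM (-0.41, -0.85 to 0.02). Klf8 was at 0.893 and 1.07 CPM (0.26, -0.32 to 0.84). Klf9, a glucocorticoid-responsive gene, was highest in the granule protease gate (27.3 and 25.4 CPM) and lowest in late neutrophil cells (6.39 and 6.92 CPM), where Klf2 was highest. In the monocyte gate it was at 11.1 CPM (8.68 to 14) with the control and 19.0 CPM (15.4 to 23.3) with the Cxxc5 shRNA, or 0.78 (0.32 to 1.24). In the early neutrophil gate the sign turned, with 22.0 and 15.0 CPM, or -0.55 (-0.93 to -0.17). Of 9 SP genes, relatives that bind the same GC-rich elements, 2 reached 10 CPM and 0 were past 1.2-fold: Sp3 had 30.7 and 27.7 CPM and Sp1 16.1 and 18.4 CPM.

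Genes that act on KLF2 and KLF4 or respond to them gave a mixed picture. The MEKK3-MEK5-ERK5-MEF2 cascade induces both genes, and of its 9 listed members 5 reached 10 CPM. Mef2a was lower, at 12.5 and 10.2 CPM (-0.29, -0.45 to -0.13), and 0 were higher. Mef2c, the most abundant, was at 47.4 and 54.4 CPM (0.20), Map2k5, which encodes MEK5, at 18.8 and 19.4, Mef2d at 16.8 and 17.5, and Hdac5, a repressor of MEF2, at 11.7 and 11.3. Of 12 genes known as KLF2 or KLF4 targets, 5 reached 10 CPM, with 1 lower, 0 higher and a median log2 ratio of -0.21. The lower one was Itgb7, the integrin beta 7 chain, at 10.4 and 7.05 CPM (-0.57, -0.75 to -0.38). The cell cycle inhibitor Cdkn1a was at 33.1 and 28.6 (-0.21), the monocyte receptor Cd14 at 10.4 and 8.88 (-0.22) and Cxcr4 at 18.4 and 18.8 (0.03). S1pr1, a KLF2 target in T cells, had 6 UMIs in each library.

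Corepressors and coactivators of KLF proteins at 10 CPM or more differed little between the libraries. Of 12 listed, 9 reached 10 CPM and 0 were past 1.2-fold in either direction, with a median of 0.00. Ctbp1, the partner of KLF3, was at 117 and 118 CPM, Hdac1 at 116 and 112, Hdac2 at 89.2 and 91.9, and Sin3b at 88.1 and 86.9. Of 7 ubiquitin ligases that act on KLF proteins, Wwp1 (14.4 and 12.9 CPM) and Vhl (9.86 and 11.0 CPM) reached the level, and neither was past 1.2-fold. Of 10 TGF-beta signalling genes, which act on Klf10 and Klf6, Tgfb1 (182 and 173 CPM) and Smad2 (20.4 and 20.5 CPM) reached it, and neither was past 1.2-fold. Below 10 CPM, and named after their values were seen, genes of these lists went both ways. Fhl2 (0.78, 0.24 to 1.33), Eng (0.53, 0.26 to 0.80) and Smad3 (0.46, 0.13 to 0.80) were higher. Fhl3 (-0.51, -0.89 to -0.14) and Smad7 (-0.26, -0.49 to -0.04) were lower.

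Many of the genes listed as immediate early, like Klf2, Klf4, Klf6 and Klf10, respond within a short time to serum and stress. Of 16 listed, 7 reached 10 CPM, 3 were lower and 0 higher, with a median log2 ratio of -0.04, against 4.72% lower and 3.8% higher over all genes of that level and a median of 0.03. Jund was at 66.0 and 41.5 CPM (-0.67, -0.75 to -0.60), Ier3 at 21.9 and 15.9 CPM (-0.46, -0.59 to -0.34) and Btg2 at 14.6 and 10.9 CPM (-0.42, -0.57 to -0.26). Ier2 (69.2 and 67.2 CPM), Myc (63.7 and 65.6 CPM), Junb (32.4 and 33.1 CPM) and Ier5 (14.7 and 15.4 CPM) were not past 1.2-fold. Below 10 CPM, and named after their values were seen, Jun had 328 and 209 UMIs (-1.0, -1.26 to -0.75) and Fos 263 and 233 (-0.53, -0.79 to -0.27).

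The genes whose level over gates was most like that of Klf2 were Mgst1 (Pearson r = 0.960), Klf7 (0.958), 1600014C10Rik (0.936), Myo1f (0.935) and Glrx (0.935), of 4797 genes of at least 20 CPM. For Klf4 they were Ctsc (0.976), Tmem55b (0.968), Dek (0.967), Ifngr2 (0.961) and Psap (0.95), of 4798. Each r is over 12 points, 6 gates in 2 libraries, on log2(CPM + 5). The points share libraries, depth and the cuts of the gates, so these are descriptions of rank.

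Cells with few proliferation UMIs were compared with the others of their gate. In the late neutrophil gate, cells with under 4 proliferation UMIs per 10000 (51 control and 61 knockdown cells) had 133 and 97.9 CPM of Klf2, against 77.3 and 51.0 CPM in the other cells. In the monocyte gate, such cells (57 and 73) had 22.8 and 12.4 CPM of Klf4, from 14 and 5 UMIs, against 56.6 and 41.5 CPM in the others. Klf2 in those monocyte-gate cells was at 34.2 and 32.3 CPM, against 37.7 and 28.3 CPM in the others, so its late neutrophil difference was not seen there. In the granule protease gate Klf2 was at 24.6 and 23.1 CPM in the cells with few proliferation UMIs, from 15 and 19 UMIs, against 23.5 and 10.9 CPM. Of those 19 knockdown UMIs 10 were in the richest cell. The log2 ratio in these cells was -0.09 (-1.14 to 0.99), so neither a gap nor its absence was resolved. Klf7 in the late neutrophil gate was at 47.3 and 49.0 CPM, from 20 and 16 UMIs, against 30.3 and 28.2 CPM in the others. Klf13 was at 140 and 85.7 CPM, from 59 and 28 UMIs, against 100.4 and 94.1 CPM. For both genes the intervals overlap those of the other cells in each library, so no difference was resolved. Cells with few proliferation UMIs were also shallower, with median UMIs of 7086 against 13101 in control late neutrophil cells, and the part of depth in this was not tested.

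Klf2 and Klf4 UMIs were not seen to avoid each other within the monocyte gate. At 5000 UMIs, 11 of 71 control cells with a Klf4 UMI also held a Klf2 UMI (15.5%, 8.0 to 26.0%), against 36 of 306 without one (11.8%, 8.38 to 15.9%). In the knockdown library it was 7 of 56 (12.5%, 5.18 to 24.1%) against 32 of 382 (8.38%, 5.80 to 11.6%). Outside the gates, where the control library had only 10 cells with a Klf4 UMI, only the knockdown library was compared. There it was 0 of 34 (0 to 10.3%) against 24 of 434 (5.53%, 3.57 to 8.12%). The intervals overlap, so an excess or a lack of cells with both was not detectable at this depth.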

How the data were processed

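The authors deposited raw UMI counts for each gene in each cell barcode. The submitters' processing notes name Cell Ranger 2.1.1 and mm10, and per the labels' protocols the libraries were 10x Genomics 3' libraries of version 2 chemistry. No label or header gives the annotation release or the cell calling settings. The KLF members, the gene lists and the alternatives were chosen with earlier results of these data known, gate cuts after the scores were seen. Cells with at least 500 genes and at most 10% mitochondrial UMIs were kept, which removed 13 of 2925 control and 11 of 6015 knockdown barcodes. Levels are summed UMIs per 1000000, with exact Poisson intervals. Ratios have exact intervals from the split of UMIs, and shares exact Clopper-Pearson intervals. Intervals treat UMIs as independent, so they are narrower than the spread where few cells carry much of a gene. A cell that passed several gates went to the first of dendritic, mast-basophil, late neutrophil, early neutrophil, monocyte and granule protease; doublets were not called, and leaving out the 81 control and 91 knockdown cells past 2 or more gates is an alternative. With 1 library a group no p-value was computed. The genes named are the members in every gate, Cxxc5, list members past 1.2-fold at 10 CPM or more with up to 4 other abundant ones, and the 5 genes most like Klf2 and Klf4; others are marked as named after their values were seen, and a few genes are not reported here. The arithmetic was tested on simulated counts. Python 3.11.15, numpy 2.4.6, scipy 1.17.1, pandas 2.3.3, matplotlib 3.10.9 and, for scaling factors, edgeR 4.0.16 were used; loci are from GENCODE M21.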

Additional observations from a re-analysis of the deposited data

How the results depend on the processing

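With 1 library a group and UMI depth that differs between them, the data limit what can be said of members under about 20 UMIs in a gate. This covers Klf4 in the neutrophil and mast-basophil gates and Klf2, with 16 knockdown UMIs, in the mast-basophil gate. No paired analysis was possible because each group has 1 library and the labels give no shared replicate numbers. Over all cells, 62 of 72 alternative values of the 8 ratios stayed within the counting interval of the main value, 10 moved outside it and 0 reversed, a word used only where the main ratio was past 1.2-fold. Below that fold 2 values changed sign, both of Klf3. TMM and median-of-ratios scaling shifted all log2 ratios by -0.005. Thinning to 5000 UMIs, 1 random draw, moved Klf2 to -0.91, Klf6 to -0.89, Klf7 to -0.29 and Klf13 to -0.42. In that draw the control and knockdown means were 0.129 and 0.0694 UMIs a cell for Klf6 and 0.128 and 0.104 for Klf7. A draw at 3000 UMIs gave 0.0663 and 0.0453 for Klf6 and 0.0786 and 0.0729 for Klf7, in proportion narrower gaps. Klf2 had 0.105 and 0.0532 there and Klf13 0.226 and 0.167. The shifts of Klf6 and Klf7 thus differed between draws. Gate shares of the control library moved Klf2 to -0.83, Klf4 to -0.36, Klf6 to -0.46 and Klf13 to -0.23, and with gates scored at 5000 UMIs, an alternative added after seeing the data, Klf2 to -0.89 and Klf4 to -0.45. Members called lower were 3, but 1 (Klf13) at 50 CPM or more and 2 (Klf2 and Klf6) at control gate shares. They were 4 in the 1 draw at 5000 UMIs. The cause was not tested. Within gates, 257 of 275 alternative values stayed within the interval, 10 moved and 8 reversed, and 26 values of main ratios under 1.2-fold changed sign within it. The reversals were Klf4 in the mast-basophil gate with cuts halved (0.33), in the late neutrophil gate with cuts doubled (1.65), in the early neutrophil gate with cuts halved (-0.91), doubled (-1.38) or gates scored at 5000 UMIs (-0.28), and outside the gates without the 10 richest cells (0.11) or thinned (0.46). Klf16 in the mast-basophil gate without the 10 richest cells reversed to 0.012. With cuts halved, 55 control cells stayed outside the gates, and no value was computed for them. Weighting score bins as in the control library, also added later, gave Klf4 -0.35 in place of -0.86 and Klf2 -0.77 in place of -0.96 in the cells binned by the monocyte score. Unthinned shares of cells with a UMI moved for all 8 members.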
